A study of Mus musculus with 20 samples.

Results

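The 9 genes described here are complement components and regulators that the left ventricle of the mouse expresses: C1qa, C1qb, C1qc, C1ra, C3, C4b, Cfb, C3ar1, and Serping1. They were taken by gene symbol from the table of raw read counts, which lists 15956 genes, and the list had been drawn up with earlier results of these data known. All 9 were in the table, and all 9 passed the filter on low counts that left 13991 genes for testing. In HF hearts the mean level of every one of the 9 genes was the highest of the 4 diet groups, and in HF + LP hearts it was lower than in HF hearts for every one. Beside the spread between mice the differences varied by member. The gap from HF to the next group passed the larger SD of the pair for 3 of the 9. For 5 members every HF + LP mouse lay below every HF mouse, as for 0.636% of all genes. No member passed the study's threshold in HF against NP or in HF + LP against HF by edgeR's quasi-likelihood test (Benjamini-Hochberg adjusted p under 0.01, with the normalized count averaging over 50), which called 0.264% and 0% of all genes in these comparisons. DESeq2, the program the study used, called no member in HF against NP, where it called 1% of all genes. In HF + LP against HF it called C4b (adjusted p = 0.00975) and 0.101% of all genes.

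Male mice were fed 1 of 4 diets, with 5 mice in each group: a control diet with normal protein (NP), a diet low in casein protein (LP), a high-fat diet (HF), and a high-fat diet that was also low in protein (HF + LP). All are labelled as 18 months old, whereas the study's methods place tissue collection at a younger age, and neither source names the strain. Left ventricular RNA was read by QuantSeq, a method that starts at the poly(A) tail and counts 3′ ends, so that long transcripts gain no extra reads. Levels are given as normalized counts, which are raw counts divided by the library's effective size and brought to the mean effective size of the 20 libraries. Each library is a separate mouse, named here by its group and its animal number. The label of LP 5, unlike all other labels, adds a sample number after the animal number. What that sample number stands for is not given in the sources used here.

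Complement is a cascade of plasma and tissue proteins that tags cells, debris, and microbes for uptake. In the classical pathway the C1q recognition protein, built from the A, B, and C chains, carries the proteases C1r and C1s, which cleave C4 and C2 to form an enzyme that splits C3. In the alternative pathway factor B joins deposited C3 fragments to form a second enzyme of this kind, and the small fragment C3a signals through its receptor on myeloid and other cells. The liver makes most plasma complement, while tissue macrophages are a main source of C1q, and fibroblasts and other stromal cells make C1r, C1s, C3, and C4 locally.

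The C1q chain genes lie side by side on the minus strand of chromosome 4 of GRCm38, with C1qb at chr4:136880129-136886187, C1qc at chr4:136889804-136893065, and C1qa at chr4:136895917-136898803. C3ar1 lies at chr6:122847138-122856161 and C1ra at chr6:124512405-124523443. On chromosome 17 are C4b (chr17:34728380-34743882), Cfb (chr17:34856374-34862518), and C3 (chr17:57203970-57228136), and Serping1 lies at chr2:84765387-84775444. The annotation lists all 9 as protein coding. Cfb overlaps the protein-coding gene Gm20547 and the microRNA gene Mir6972 on the same strand, and C3 overlaps the microRNA gene Mir6978. Neither C4b nor C1ra can be separated with certainty from its near-identical neighbour, C4a or C1rb, because how the authors' counting treated reads that fit both is not given in the sources used here. C4a and C1rb were not analysed here.

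Promoter sequences of 5 of the 9 members, 250 bases before to 50 bases after the gene's start, were found in RefSeq's GRCm38.p6 annotation: C1qb, C1qc, C1ra, C3, and C3ar1. Shown here are C1qb and C1qc, neighbours that encode chains of the same protein, and C3 with C3ar1, the receptor for its fragment. Each is written 5′ to 3′ on the strand of the gene. Capitals mark letters that match 1 of 5 motifs searched on both strands: the interferon-gamma activated site TTCNNNGAA, the interferon response factor site (GAAA, any 2 bases, GAAA), the PU.1 site GAGGAAGT, the C/EBP site TTGCNNAA, and the NF-kB site (GGG, any 2 bases, TTTCC).
C1qb (chr4:136886151-136886450, minus strand): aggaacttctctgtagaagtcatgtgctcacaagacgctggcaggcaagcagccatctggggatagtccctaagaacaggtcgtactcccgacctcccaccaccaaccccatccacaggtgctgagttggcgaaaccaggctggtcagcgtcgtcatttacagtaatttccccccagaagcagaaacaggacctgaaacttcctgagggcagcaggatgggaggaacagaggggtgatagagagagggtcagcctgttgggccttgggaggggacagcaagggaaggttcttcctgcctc
C1qc (chr4:136892865-136893164, minus strand): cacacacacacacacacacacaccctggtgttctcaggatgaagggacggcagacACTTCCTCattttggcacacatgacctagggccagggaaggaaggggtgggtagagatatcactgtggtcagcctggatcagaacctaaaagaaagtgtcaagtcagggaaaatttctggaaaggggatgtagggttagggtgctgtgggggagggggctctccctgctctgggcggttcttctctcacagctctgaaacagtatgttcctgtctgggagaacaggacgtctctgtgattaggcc
C3 (chr17:57228087-57228386, minus strand): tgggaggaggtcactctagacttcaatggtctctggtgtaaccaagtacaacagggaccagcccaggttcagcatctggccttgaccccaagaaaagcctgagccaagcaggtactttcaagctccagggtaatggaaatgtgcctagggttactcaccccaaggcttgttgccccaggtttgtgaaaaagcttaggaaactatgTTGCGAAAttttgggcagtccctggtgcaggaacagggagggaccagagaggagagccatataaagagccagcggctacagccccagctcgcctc
C3ar1 (chr6:122856108-122856407, minus strand): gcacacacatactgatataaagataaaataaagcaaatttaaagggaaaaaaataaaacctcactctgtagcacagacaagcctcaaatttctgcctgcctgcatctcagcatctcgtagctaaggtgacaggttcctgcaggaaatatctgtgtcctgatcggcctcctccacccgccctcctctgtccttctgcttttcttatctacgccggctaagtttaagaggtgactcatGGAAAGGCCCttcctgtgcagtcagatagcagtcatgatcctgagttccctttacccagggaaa

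The C1qc promoter held 1 PU.1 match, on the opposite strand (ACTTCCTC, bases 56 to 63), a motif present in 3.2% of the 32851 promoters of this length. The C3 promoter held 1 C/EBP match (TTGCGAAA, bases 206 to 213), and 10.8% of all promoters hold one. In the C3ar1 promoter an NF-kB match lay on the opposite strand (GGAAAGGCCC, bases 237 to 246), and 1.63% of promoters hold one. No letters of the C1qb promoter matched. The promoter of C1ra (chr6:124512371-124512670, plus strand) held a C/EBP match on the opposite strand (TTATGCAA, bases 267 to 274) and an interferon-gamma activated site (TTCCCTGAA, bases 283 to 291), the latter found in 8.30% of promoters. The interferon response factor site was found in none of the 5 promoters and in 3.44% of all. None of these matches overlapped another, and a match is a run of letters and not evidence that a factor binds.

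Total counts per library lay between 12559607 and 23331907, and mitochondrially encoded transcripts made up 35.4% to 47.2% of them. That share went with diet: it was 41.3% to 47.1% for NP, 35.4% to 44.5% for LP, 38.1% to 39.8% for HF, and 38.5% to 47.2% for HF + LP, so that it was lower in every HF mouse than in every NP mouse. With scaling factors computed without these transcripts, all 9 members still had the higher mean in HF than in NP and the lower mean in HF + LP than in HF. The lowest raw count of any member in any library was 12, for Cfb. Heart muscle markers were abundant in every library, with summed normalized counts of 8 cardiomyocyte genes (led by Actc1, Myl2, and Tnnt2) from 563390 to 909464. One library stood apart: LP 13 had a median correlation of 0.908 with its own group, against 0.944 to 0.979 for the other 19. LP 13 was also the most deeply sequenced, and it held the highest level of its group for 7 of the 9 members, while LP 5 held the lowest for 9 of 9. The tissue is bulk, so that fewer cells of a type and less RNA per cell cannot be told apart.

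**Figure D1:**
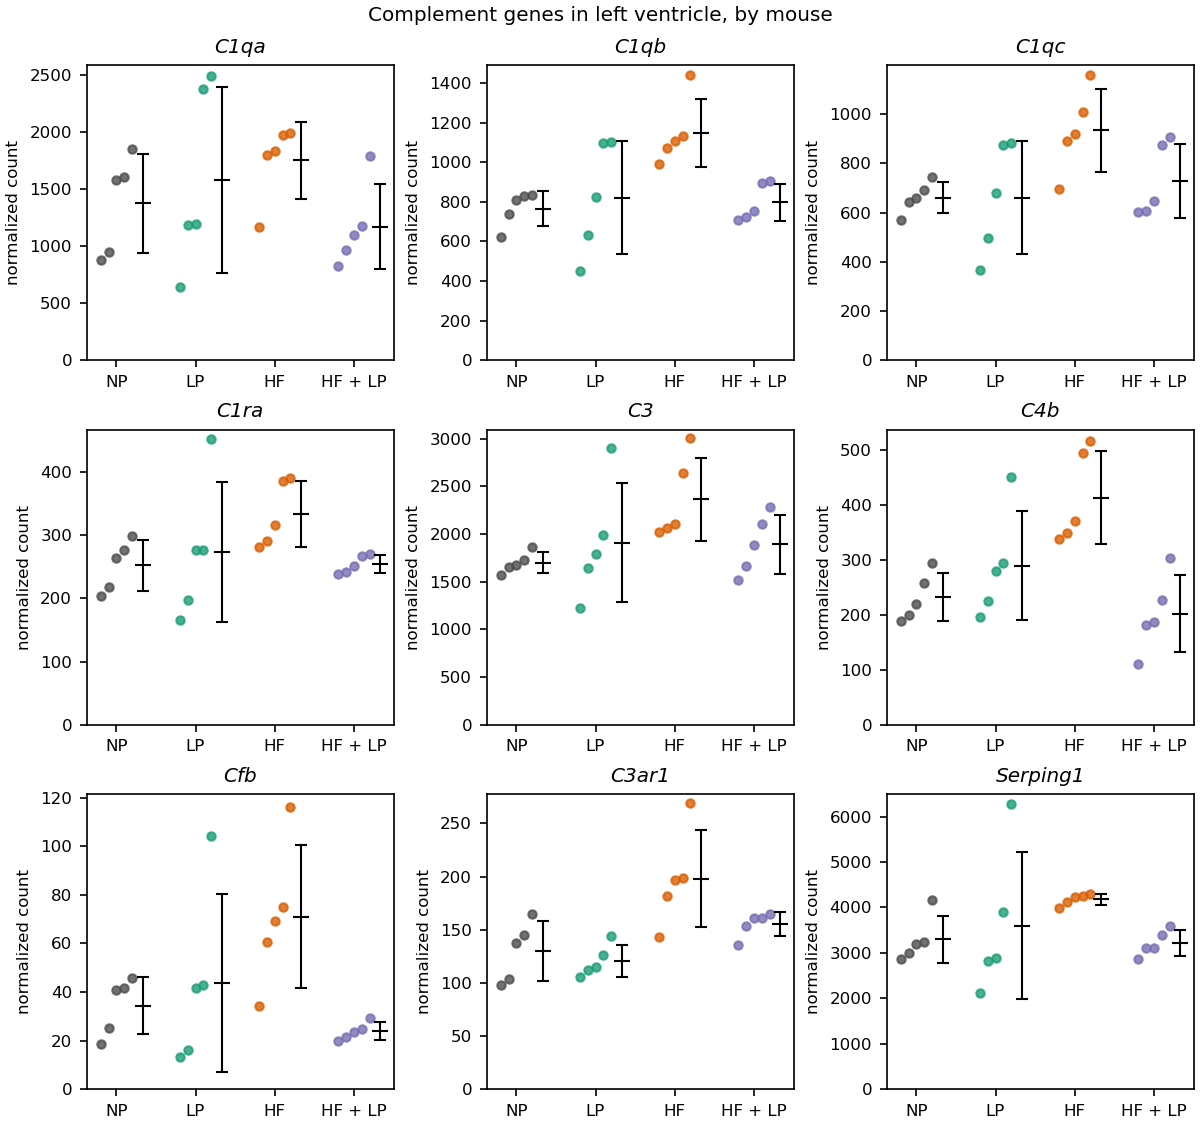
Normalized counts (vertical axis, from 0) of the 9 complement genes by diet group. Each point is 1 mouse, the horizontal bar is the mean, and the error bar is the SD (n = 5). The HF mean is the highest for every gene, and LP has the largest SD for 8 of the 9 (all but C3ar1).

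C4b, the classical-pathway component whose cleaved fragment binds covalently to target surfaces, was 1 of 2 members, with C1qb, for which no HF mouse overlapped either NP or HF + LP. NP hearts held 189, 201, 219, 259, and 295 normalized counts (232 ± 43.8, mean ± SD, n = 5). In HF hearts C4b was at 338, 348, 370.5, 494, and 517 (413.5 ± 85.3), so that the lowest HF mouse lay above the highest NP mouse. HF + LP hearts held 111, 181, 187, 227, and 304 (202 ± 70.7), all below the lowest HF mouse. In LP hearts the values were 197, 226, 281, 295, and 451 (289.9 ± 98.4), a range that touched those of all other groups, with LP 13 the highest. The log2 fold change of C4b in HF against NP was 0.83 ± 0.24 (SE), a 1.78-fold difference (adjusted p = 0.0839). That in HF + LP against HF was −1.03 ± 0.24 (adjusted p = 0.217), which placed C4b 17th of the 13991 genes by p.

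Cfb encodes factor B, the protease of the alternative pathway. It was the least abundant member, with a mean of 43.2 normalized counts over the 20 mice, and so it lay under the minimum of 50 and could not be called whatever its p. In NP hearts Cfb was at 18.7, 25.1, 40.6, 41.8, and 45.6 (34.4 ± 11.8, n = 5). HF hearts held 34.3, 60.7, 69.0, 75.1, and 116 (71.0 ± 29.6), with HF 1 inside the NP range and the other 4 above it. HF + LP hearts held 19.8, 21.4, 23.7, 24.6, and 29.5 (23.8 ± 3.71), a tight group below every HF mouse. LP hearts ranged from 13.3 to 104, with the highest value in LP 13 and the remaining 4 at 42.9 or less. The log2 fold change was 1.04 ± 0.42 in HF against NP (adjusted p = 0.275) and −1.57 ± 0.43 in HF + LP against HF (adjusted p = 0.343).

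C1qb, the B chain of C1q, was at 622, 736, 808, 828, and 835 in NP hearts (766 ± 89.5, n = 5). In HF hearts it was at 989, 1074, 1107, 1134, and 1440.4 (1149 ± 172), above every NP mouse. The HF + LP values, 710.4, 726, 753, 894, and 903 (797 ± 93.7), lay within or just above the NP range and below every HF mouse. In LP hearts C1qb ran from 451 to 1101, so that its lowest mouse lay below all other mice and its highest lay among the HF mice. The log2 fold change was 0.58 ± 0.19 in HF against NP (adjusted p = 0.130) and −0.53 ± 0.19 in HF + LP against HF (adjusted p = 0.626).

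C1qa, the gene of the A chain, varied more within each group than C1qb. It had means of 1374 ± 434 for NP, 1580.1 ± 815 for LP, 1755 ± 338 for HF, and 1171 ± 371 for HF + LP, and the 4 ranges overlapped. HF 1, at 1169.6, lay apart from the other HF mice, which were between 1802 and 1991. Counts of C1qc, the C chain, ran from 569 to 746 for NP, 365 to 885 for LP, 698 to 1159.9 for HF, and 602 to 906 for HF + LP. Its log2 fold change was 0.50 ± 0.20 in HF against NP (adjusted p = 0.266) and −0.36 ± 0.20 in HF + LP against HF (adjusted p = 0.999). For C1qa the log2 fold changes were 0.35 ± 0.31 (adjusted p = 0.707) and −0.58 ± 0.31 (adjusted p = 0.999). The 3 chains assemble in equal numbers in the C1q protein, but the ratio of their counts was not fixed between mice. The C1qb to C1qc ratio of counts ranged from 0.943 to 1.42 in NP, 0.954 to 1.62 in HF, and 0.829 to 1.47 in HF + LP, and only from 1.21 to 1.27 in LP, where the levels themselves varied most.

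C3 is the protein on which all complement pathways converge. Its NP values were close together, at 1572, 1651, 1677, 1726, and 1864 (1698 ± 108, n = 5). HF hearts held 2018, 2067, 2102, 2636, and 3003 (2365 ± 436), above every NP mouse, with HF 2 and HF 3 well above the other 3. HF + LP values were 1512, 1665, 1888, 2102, and 2283 (1890.2 ± 313), and they overlapped both the NP and the HF range. LP hearts ran from 1219 in LP 5 to 2906 in LP 13. The log2 fold change of C3 was 0.48 ± 0.18 in HF against NP (adjusted p = 0.219) and −0.32 ± 0.18 in HF + LP against HF (adjusted p = 0.999).

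C3ar1, the receptor for the C3a fragment, had the smallest p of the members in HF against NP. NP hearts held 97.9, 104, 138, 145, and 165 (130.0 ± 28.5, n = 5). In HF hearts the values were 143, 182, 197, 199, and 269 (198 ± 45.5), with HF 3 inside the NP range. HF + LP hearts held 136, 154, 161, 161, and 165 (155 ± 11.6), and LP hearts 106, 112, 115, 126, and 144 (120.5 ± 15.0), so that 4 of the 5 HF mice lay above every mouse of both groups. The log2 fold change was 0.60 ± 0.16 in HF against NP (adjusted p = 0.0628) and −0.35 ± 0.16 in HF + LP against HF (adjusted p = 0.970). LP 13, the highest of its group for most members, was the second lowest LP mouse for C3ar1.

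C1ra encodes the C1r protease, and Serping1 encodes C1 inhibitor, which inactivates C1r and C1s. Serping1 was the most abundant member, with a mean of 3571 normalized counts over all mice. Its HF values were almost equal, from 3993 to 4296 (4179 ± 121, n = 5), and the NP values ran from 2859 to 3237 in 4 mice and stood at 4172 in NP 4. HF + LP values ran from 2871 to 3596 (3210.3 ± 282), all below HF, and LP values from 2112 to 6276. C1ra had means of 253 ± 40.2 for NP, 274 ± 111 for LP, 333 ± 51.9 for HF, and 254 ± 14.2 for HF + LP, and the HF + LP mice, at 239 to 270.3, lay below the lowest HF mouse at 282. The log2 fold changes in HF against NP were 0.40 ± 0.20 for C1ra (adjusted p = 0.396) and 0.34 ± 0.20 for Serping1 (adjusted p = 0.50). In HF + LP against HF they were −0.39 ± 0.20 (adjusted p = 0.999) and −0.38 ± 0.20 (adjusted p = 0.999).

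Across the 9 members the order of the group means began with HF each time. The gap from HF to the next group was larger than the larger SD of the pair for 3 members, C1qb, C1qc, and C4b. Below HF, none of the 18 gaps between neighbouring groups exceeded the larger SD of the pair, so neighbours in the order of NP, LP, and HF + LP did not differ beyond their spread. C3ar1 was the exception among groups that are not neighbours, with HF + LP (155 ± 11.6) above LP (120.5 ± 15.0).

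**Figure D2:**
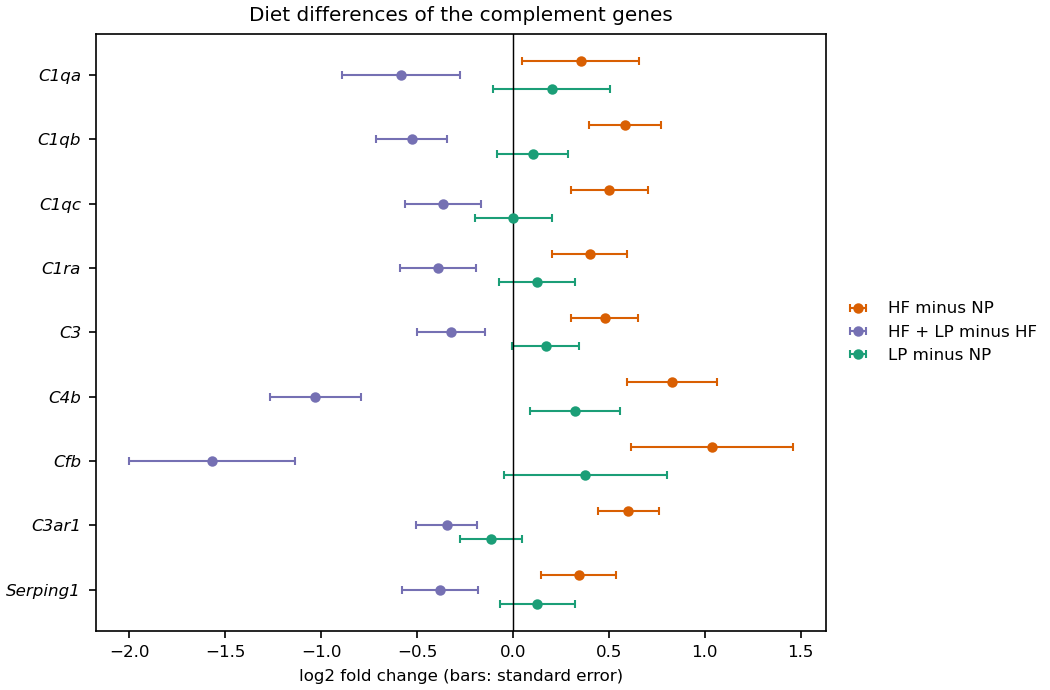
Log2 fold changes of the 9 complement genes (horizontal axis) for HF minus NP, HF + LP minus HF, and LP minus NP. Points are edgeR estimates and bars are their standard errors. The HF minus NP points lie above 0 (0.34 to 1.04), the HF + LP minus HF points lie below 0 (−1.57 to −0.32), and LP minus NP points lie nearer to 0.

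The comparison of HF with NP asks what a high-fat diet does at normal protein. All 9 members had a higher mean in HF, with a median log2 fold change of 0.50, against a median of −0.0011 over all genes tested. None of the 9 was called by edgeR or by DESeq2, while 0.264% of all genes were called by edgeR and 1% by DESeq2. At an unadjusted p under 0.05, 6 of the 9 were higher by edgeR and 7 by DESeq2, and 5.17% of all genes by edgeR and 5.77% by DESeq2 were higher at this p. For 3 members, C4b, C1qb, and C3, no HF mouse was as low as any NP mouse, and 2.07% of all genes showed this separation. Leaving out 1 mouse at a time gave 5 to 8 members at this p, with 4.2% to 6.93% of all genes higher in those fits, and no member changed direction. The libraries carry a number in their names whose meaning the labels do not give. Within numbers 2 (1 HF against 2 NP mice) and 3 (3 against 2) all 9 members were higher in HF, and within number 1 (1 against 1) 6 of 9 were.

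The comparison of HF + LP with HF asks what low protein does under a high-fat diet, and it shares the HF mice with the first. All 9 members were lower in HF + LP, with a median log2 fold change of −0.39, against 0.017 over all genes. None was called by edgeR, which called 0% of all genes here, and 4 were lower at an unadjusted p under 0.05 (C4b, Cfb, C1qb, and C3ar1), against 2.43% of all genes. DESeq2 called 1 member, C4b (adjusted p = 0.00975), and placed 7 lower at an unadjusted p under 0.05, while it called 0.101% of all genes and placed 2.77% lower at this p. Over all settings tried, the adjusted p of C4b ran from 0.00975 to 0.608. For 5 members, C4b, Cfb, C1qb, C1ra, and Serping1, every HF + LP mouse lay below every HF mouse, as it did for 0.636% of all genes. The count of 4 depended on LP mice, which are in neither group but share the fit. It became 7 without LP 13 and 9 without LP 5, with 3% and 2.58% of all genes lower in those fits. The cause was not tested. Within library numbers 1 and 3 all 9 members were lower in HF + LP, and within number 2 (1 mouse against 1) 8 of 9 were, with C1qc at 0.024.

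The remaining comparisons gave smaller differences. In LP against NP, which asks what low protein does at normal fat, 8 members were higher and 1 was lower. The median log2 fold change was 0.13, and neither edgeR nor DESeq2 called a member (0% of all genes were called by edgeR) or placed one at an unadjusted p under 0.05 (7.23% of all genes by edgeR). Without LP 13 the direction turned, with 1 member higher and 8 lower. In HF + LP against NP 5 members were higher and 4 lower, with a median of 0.010. None was called by either tool, against 0.0286% of all genes by edgeR, and none had an unadjusted p under 0.05 in either, against 8.77%. Without NP 5 the count at this p was 1, against 7.7% of all genes.

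In HF + LP against LP, which asks what a high-fat diet does at low protein, C3ar1 was higher (log2 fold change 0.37 ± 0.16, adjusted p = 0.260), while C4b was lower (−0.52 ± 0.24, adjusted p = 0.285) and so was Cfb (−0.91 ± 0.43, adjusted p = 0.314). Over all genes 6.26% were higher and 9.66% lower at an unadjusted p under 0.05, and 0.1% were called, so that 1 and 2 of 9 members stood near the background. No member was called by edgeR or DESeq2, and DESeq2 placed 3 at this p, against 15.5% of all genes. The count of 3 fell to 0 without LP 13, HF + LP 1, or HF + LP 2, and to 1 without LP 20, LP 15, HF + LP 4, or HF + LP 5, while the share of all genes at this p ran from 12.3% to 15.2% in those fits. Without LP 13 the log2 fold change of Cfb was −0.27 and that of C4b −0.30.

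The interaction of fat and protein compares the effect of low protein at high fat with that at normal fat. It was below 0 for all 9 members, with a median of −0.52 on the log2 scale against −0.0060 over all genes. It was −1.35 ± 0.33 for C4b (adjusted p = 0.614), −1.94 ± 0.61 for Cfb (adjusted p = 0.614), and −0.63 ± 0.26 for C1qb (adjusted p = 0.683). No member and 0% of all genes were called by edgeR, DESeq2 called no member either and placed 4 lower at an unadjusted p under 0.05, against 4.9% of all genes, and by edgeR 3 of 9 members against 4.31% of all genes were lower at this p. That count became 8 without LP 5 and 5 without LP 2, with 6.38% and 5.66% of all genes lower. In a test of any difference over the 4 diets, 4 members had an unadjusted p under 0.05, against 15.9% of all genes, and none was called, against 0.479%. The smallest values were those of C3ar1 (adjusted p = 0.0418) and C4b (adjusted p = 0.0544). DESeq2 called both and placed 6 members at an unadjusted p under 0.05, while it called 2.01% of all genes and placed 16.6% at this p. Without LP 13 the edgeR count was 8, against 15.7% of all genes.

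Within diets the levels of several members went together across mice, in part through the 2 most extreme mice. After the diet means were removed, log2 levels of C1qa and C1qb had a Pearson r of 0.83 over the 20 mice (Spearman rho 0.76, and r 0.70 without the 2 mice farthest from the median of the gene named first). C1qa and C1qc had an r of 0.84, C1qb and Cfb of 0.85, C1ra and Serping1 of 0.87, C1ra and C3 of 0.83, and C3 and C4b of 0.83. C3 with C4b held best without the 2 farthest mice, at 0.77 (rho 0.87), followed by C1qb with Cfb at 0.76, while C1ra with Serping1 came to 0.59. C3ar1 stood outside this pattern, with r from −0.12 to 0.28 against the other 8. Over all 36 pairs the median r was 0.62, and it was 0.35 when each pair was taken without the 2 mice farthest from the median of its first-listed gene. For C1qb and C1qc r was 0.72 (rho 0.54) and came to 0.44 without those mice. These values are descriptions across mice that share library depth and tissue composition as well as diet, and LP 13 and LP 5 were the extremes of their group for most members.

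**Figure D3:**
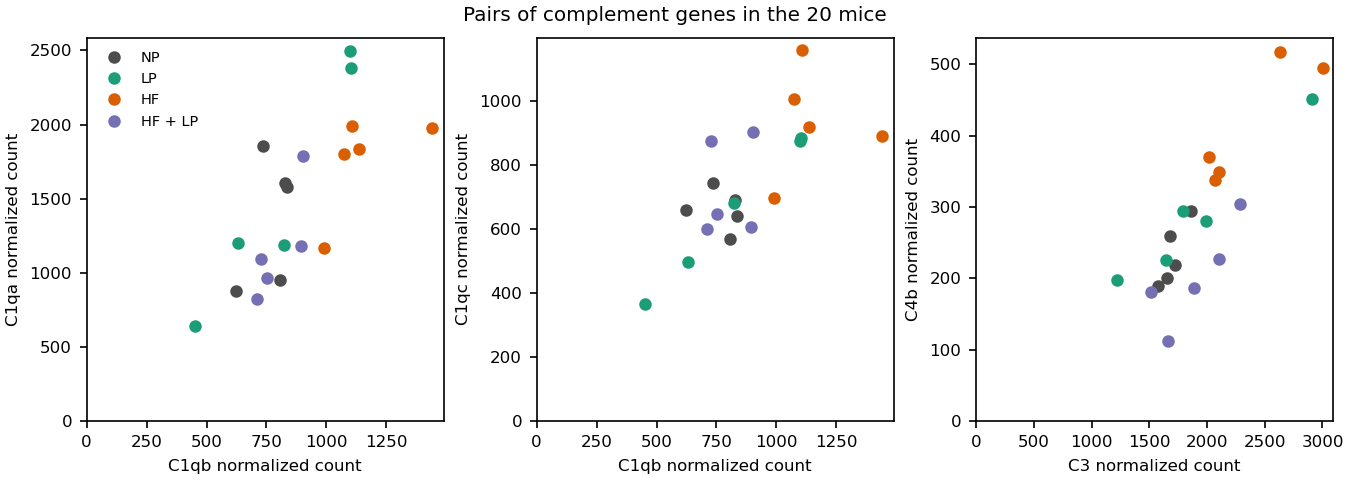
Normalized counts of C1qa against C1qb, C1qc against C1qb, and C4b against C3, with 1 point for each of the 20 mice coloured by diet. Mice high in one gene of a pair tended to be high in the other (r of 0.83, 0.72, and 0.83 on the log2 scale after removing diet means, and 0.70, 0.44, and 0.77 without the 2 mice farthest from the median of C1qa, C1qb, and C3, in turn).

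Among 10141 other genes with a mean over 50, the same measure gave the 3 most alike for each member, with r between 0.77 and 0.94. For C3 they were Trf, Lbp, and Rarres2, and for C4b they were Cyp1b1, Lbp, and S100a10, so that Lbp, which encodes lipopolysaccharide-binding protein, was named for both. C1qc was most like Man2b1, Gm28875, and the macrophage gene Lyz2. Cfb was most like Serp1, Gm20559, and Adgre1, the gene of the macrophage surface marker F4/80. C1qa was followed by Pex14, Abca2, and Adm, C1qb by Adamts10, Trim28, and Tmem176a, and C1ra by Spock2, Gabra3, and Axl. Serping1 was followed by Spg21, Ddx39b, and Cxxc1, and C3ar1 by Ccdc189, Zdhhc3, and Clec1a. Without the 2 mice farthest from the member's median these r lay between 0.64 and 0.88. They were picked as the highest of 10141 values for each member, so their size came in part from the selection.

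Markers of cell types that make complement moved with the groups. The summed normalized counts of 16 macrophage markers, led by Lyz2, Csf1r, and Lyve1, were 6066 to 6430 for NP, 4812 to 8516 for LP, 8079 to 9595 for HF, and 6471 to 7350 for HF + LP, with no marker at 0 in any library. All 16 were higher in HF than in NP (11 at an unadjusted p under 0.05, 1 called), and all 16 were lower in HF + LP than in HF (5 at this p). Over all genes 5.17% were higher at this p and 0.264% were called in HF against NP, and 2.43% were lower at this p in HF + LP against HF. The median log2 fold changes of the macrophage markers, 0.56 and −0.37, stood beside 0.50 and −0.39 for the 9 complement genes. In LP against NP the medians were 0.10 for the markers and 0.13 for the 9 genes. In HF + LP against NP 14 of the 16 markers were higher (median 0.23), against 5 of the 9 genes (median 0.010). In HF + LP against LP 10 of the 16 markers were higher (median 0.13), while 7 of the 9 genes were lower (median −0.12). The 10 fibroblast markers, led by Dcn, Gsn, and Col1a2, summed to 29331 to 37262 for NP, 26548 to 39167 for LP, 31212 to 43091 for HF, and 28073 to 36362 for HF + LP. All 10 were higher in HF than in NP (2 at an unadjusted p under 0.05) and lower in HF + LP than in HF (3 at this p). Within LP, LP 13 had the highest and LP 5 the lowest macrophage sum, as they had for most complement genes. The part of macrophage or fibroblast RNA in the complement differences was not tested.

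Interferon response genes had larger median log2 fold changes than the 9 members, 1.17 in HF against NP and −1.24 in HF + LP against HF. The sum of 16 such genes, led by Rsad2 and Irf1, ran from 2870 to 6382 for NP, 2845 to 4769 for LP, 3832 to 11821 for HF, and 2914 to 4696 for HF + LP. All 16 were higher in HF than in NP (12 at an unadjusted p under 0.05) and all were lower in HF + LP than in HF (14 at this p). None of them was called in either comparison, against 0.264% and 0% of all genes. At this p 5.17% of all genes were higher in HF and 2.43% lower in HF + LP. HF 1 had the lowest interferon sum of its group, at 3832, and the lowest level of 5 of the 9 members. Of 9 acute phase and NF-kB genes tested, led by Nfkbia, 7 were higher in HF than in NP (2 at an unadjusted p under 0.05) and 7 were lower in HF + LP than in HF (1 at this p). Their sums ran from 2517 to 2721 for NP, 2157 to 3047 for LP, 2888 to 3660 for HF, and 2115 to 3242 for HF + LP. The part of either list in the complement levels was not tested.

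**Figure D4:**
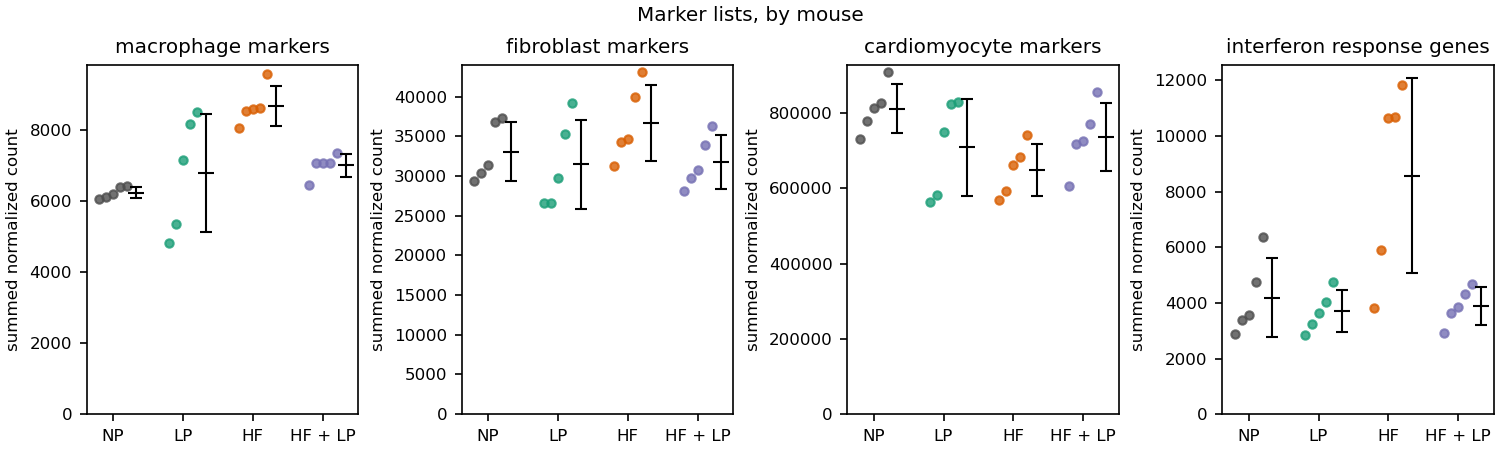
Summed normalized counts (vertical axes, from 0) of macrophage, fibroblast, cardiomyocyte, and interferon response genes by diet. Points are mice and bars are mean and SD (n = 5). Macrophage sums in HF, 8079 to 9595, lie above those in NP and HF + LP.

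The other cell lists went in different directions. Cardiomyocyte markers were lower in HF than in NP for all 8 genes (4 at an unadjusted p under 0.05) and higher in HF + LP than in HF for all 8 (0 at this p), with sums of 731348 to 909464 for NP, 563390 to 828011 for LP, 569043 to 740439 for HF, and 606170 to 854696 for HF + LP. All 6 monocyte or neutrophil genes tested (led by Ccr2) were higher in HF than in NP at an unadjusted p under 0.05, and 2 were lower in HF + LP than in HF. Their sums ran from 163 to 248 for NP, 187 to 472 for LP, 168 to 539 for HF, and 234 to 424 for HF + LP. Endothelial markers (led by Fabp4) had 1 of 8 higher in HF and 1 of 8 lower in HF + LP at this p. Mural markers (led by Rgs5) had 2 of 6 lower in HF and 1 of 6 higher in HF + LP. Erythroid genes (led by Hbb-bs) had 1 of 5 higher in HF and 0 in HF + LP, and no mesothelial (led by Upk3b, 5 tested) or lymphocyte gene (led by Cd4, 4 tested) passed this p in either comparison. Adipocyte genes (led by Car3), several of them at 0 in some libraries, summed to 102 to 6355 in LP with LP 13 the highest, and to 19.2 to 267 in HF + LP, with 0 of 7 at this p in either comparison. In the comparisons with LP mice they differed more, with 3 of 7 higher in LP than in NP, all 7 lower in HF + LP than in LP, and 5 of 7 below 0 in the interaction at this p. In the interaction, macrophage markers were below 0 for 16 of 16 (2 at this p, median −0.51), interferon response genes for 16 of 16 (7 at this p), and monocyte or neutrophil genes for 5 of 6 (3 at this p). The part of these lists in the complement values of those comparisons was not tested. Over all genes the shares at this p were 5.17% higher and 7.91% lower in HF against NP, and 2.41% higher and 2.43% lower in HF + LP against HF. In LP against NP 5.02% were higher, in HF + LP against LP 9.66% were lower, and in the interaction 4.31% were below 0.

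A list of 46 other complement genes had 27 in the table, all of them tested. The remaining 19, C4a among them, were not analysed here. In HF against NP 20 of the 27 were higher and 7 lower, with a median log2 fold change of 0.31, and 4 were higher and 1 lower at an unadjusted p under 0.05, against 5.17% and 7.91% of all genes. The 4 were C5ar1, the C5a receptor (0.92 ± 0.28, adjusted p = 0.106), Cd93, a surface glycoprotein of endothelial and myeloid cells (0.55 ± 0.17, adjusted p = 0.112), Cd55, which speeds the decay of C3 convertases (0.59 ± 0.23, adjusted p = 0.246), and Fcna, the lectin-pathway protein ficolin A (0.52 ± 0.22, adjusted p = 0.301). The one lower was Cd46, the membrane cofactor protein (−0.76 ± 0.29, adjusted p = 0.233). For Cd93 and Fcna the lowest HF mouse exceeded the highest NP mouse, with means of 2142 ± 316 against 1463 ± 208 and of 102 ± 20.0 against 70.8 ± 12.4 normalized counts. Over all genes 2.07% showed this separation.

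In HF + LP against HF 19 of the 27 were lower and 8 higher, with a median of −0.20, and 4 were lower and 3 higher at an unadjusted p under 0.05, against 2.43% and 2.41% of all genes. C6, a component of the membrane attack complex, was lower (−1.85 ± 0.44, adjusted p = 0.217), from 18.4 ± 5.26 to 4.91 ± 2.67 normalized counts, which are low levels. Vsig4, the C3b receptor of resident macrophages, was lower (−1.26 ± 0.53, adjusted p = 0.854), as were Fcna (−0.55 ± 0.22, adjusted p = 0.801) and the collectin Colec12 (−0.63 ± 0.28, adjusted p = 0.953). Those higher were Cd59b (0.78 ± 0.21, adjusted p = 0.294), Cd59a (0.29 ± 0.09, adjusted p = 0.469), and Cd46 (0.73 ± 0.29, adjusted p = 0.798), all inhibitors on the cell surface, the first pair of which block the membrane attack complex. Cd59a went from 3037 ± 180.1 to 3707 ± 275 normalized counts, with no overlap. Every HF + LP mouse lay above every HF mouse for Cd59a and Cd59b, against 0.543% of all genes, and below for C6, Fcna, and Vsig4, against 0.636%.

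Cfp, C1s1, C2, and Cfd did not pass an unadjusted p of 0.05 in either comparison. The log2 fold changes in HF against NP and in HF + LP against HF were 0.30 ± 0.21 and −0.07 ± 0.21 for Cfp, which encodes properdin, a stabiliser of the C3 convertase. For C1s1, the protease partner of C1r, they were 0.22 ± 0.21 and −0.20 ± 0.21, and for C2 0.46 ± 0.48 and 0.13 ± 0.46. Cfd encodes adipsin, an adipocyte protease that cleaves factor B. It ranged from 3.93 to 379 for NP, 53.3 to 1991 for LP, 2.3 to 604 for HF, and 5.60 to 64.7 for HF + LP. Its highest value was in LP, as was the highest adipocyte marker sum. C5ar1 in HF + LP against HF was at −0.51 ± 0.27 (adjusted p = 0.999).

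**Figure D5:**
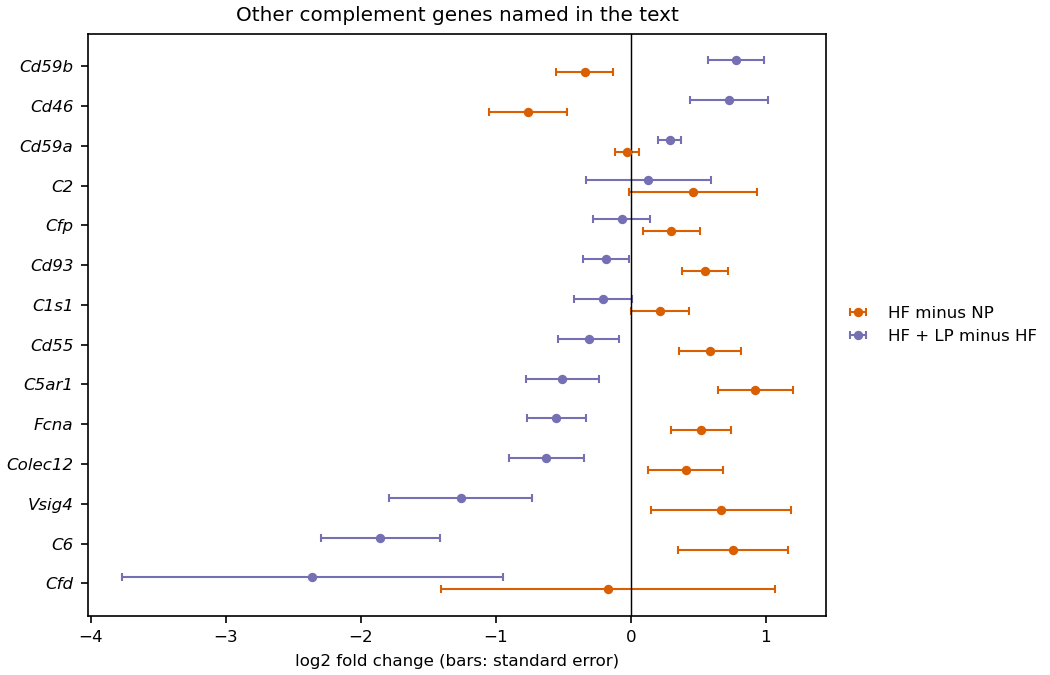
Log2 fold changes of the other complement genes named in the text (horizontal axis) in HF minus NP and HF + LP minus HF, sorted by the latter. Points are edgeR estimates and bars are standard errors. Cd59b, Cd46, and Cd59a lie above 0 in HF + LP minus HF, and C6 (−1.85) and Vsig4 (−1.26) lie below.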

How the data were processed

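RNA from the left ventricle of 20 mice was made into QuantSeq 3′ mRNA libraries. The authors deposited raw counts, 1 column a mouse and 1 row for each Ensembl gene. The submitters' processing notes name the build GRCm38 and DESeq2 1.22.2, and the annotation, the counting program, and its use of strand are not given in the sources used here. The table lists 15956 genes, each with at least 60 counts in all. Coordinates are those of the supplied GRCm38 annotation, matched by identifier.

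Counts were filtered with filterByExpr by diet, scaled by TMM, and fitted for all 20 libraries with edgeR 4.0.16 (quasi-likelihood test, R 4.3.3), without covariates. Benjamini-Hochberg adjustment covered 13991 genes. The study's threshold for a call was kept, an adjusted p below 0.01 with a normalized count averaging over 50. Standard errors were derived from the F statistic. The fit was tested on simulated data. Alternatives were RLE size factors, TMM without mitochondrially encoded genes, DESeq2 1.42.0, no filter, at least 10 counts in every library, other thresholds, the animal number as a block, the library number as a covariate, only 2 groups, and each mouse left out in turn.

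The members and the lists were chosen with earlier results of these data known. Named genes are the 9 members, up to 8 other complement genes with the smallest unadjusted p under 0.05 in each of the 2 main comparisons with Cfd, Cfp, C1s1, C2, C4a, and C5ar1, up to 3 genes of highest mean level from each marker list, and the 3 genes most like each member. Some named genes are not reported here.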

Additional observations from a re-analysis of the deposited data

Results flagged for a closer look

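Of 36 member and group combinations, each of 5 mice, 2 had an extreme value whose gap to the next exceeded Dixon's 95% limit of 0.71, and chance flags about 1 in 20 groups. C1qa in HF 1 was at 1169.6 normalized counts, with the next HF mouse at 1802. Serping1 in NP 4 was at 4172, with the next NP mouse at 3237.

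The effect of low protein differed between fat levels at an unadjusted p under 0.05 for 3 members, against 4.31% of all genes in this direction, and none passed adjustment by edgeR's quasi-likelihood test. The difference was −1.35 on the log2 scale for C4b (adjusted p = 0.614), −1.94 for Cfb (adjusted p = 0.614), and −0.63 for C1qb (adjusted p = 0.683). Low protein went with lower means of the 3 genes at high fat and with slightly higher means at normal fat, where the LP values spread widely. Leaving out 1 mouse took the log2 fold change at normal fat as low as −0.27 for Cfb and −0.038 for C1qb. That of C4b stayed at 0.097 or more.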

How the results depend on the processing

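In HF against NP and in HF + LP against HF, no member changed direction under any alternative. No member of HF against NP was called under any of them. In HF + LP against HF DESeq2 called 1 member, C4b, and the count at an unadjusted p under 0.05, 4 in the reported fit, was 7 with DESeq2 (2.77% of all genes lower), 8 with the animal number as a block (3.12%), and 9 with only the 2 groups in the fit (3.08%). Leaving out 1 mouse gave 3 to 9 there, with 2.03% to 3.55% of all genes lower. Over the 4 diets DESeq2 called 2 members, against 2.01% of all genes. By edgeR 1 member, C3ar1, had an adjusted p under 0.05 there, a level for which the share of all genes was not computed.

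Mice with the same number in different groups are not the same animal. The correlation of their deviations from the group means ran from −0.553 to 0.476, so the numbers do not pair the mice. LP shares 1 number with NP and 2 with each high-fat group. With the animal number as a block, the log2 fold change in LP against NP was −0.65 for C1qa, −0.65 for C1qb, −0.65 for C1qc, −0.69 for C1ra, −0.33 for C3, −1.18 for Cfb, and −0.57 for Serping1. In HF + LP against LP the block gave 0.59 for C1qa, 0.75 for C1qb, 0.52 for C1ra, 0.44 for C3, 1.03 for Cfb, and 0.42 for Serping1, and in HF + LP against NP −0.17 for C1ra. The interaction under the block was 0.032 for C1qa, 0.13 for C1qb, 0.27 for C1qc, 0.31 for C1ra, 0.0058 for C3, 0.13 for C3ar1, and 0.19 for Serping1. At an unadjusted p under 0.05 the block gave 7 members higher in HF than in NP (5.26% of all genes), 5 lower in LP than in NP (3.45%), 8 higher in HF + LP than in LP (2.85%), 1 below 0 for the interaction (1.72%), and 9 over the 4 diets (10.5%). The cause was not tested.

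C1qc in LP against NP, at 0.00073, was −0.0011 with RLE size factors, −0.0050 without mitochondrially encoded genes, −0.0049 with DESeq2, −0.0080 without a filter, and −0.0035 with only 2 groups. C3 in HF + LP against LP was 0.028 with the library number as a covariate. Leaving out 1 mouse moved LP against NP across 0 for C1qa (−0.023 to 0.40), C1qb (−0.038 to 0.25), C1qc (−0.14 to 0.15), C1ra (−0.15 to 0.26), C3 (−0.039 to 0.29), Cfb (−0.27 to 0.60), and Serping1 (−0.18 to 0.27). It did so in HF + LP against NP for C1qb (−0.0087 to 0.097), C1ra (−0.058 to 0.079), and Serping1 (−0.084 to 0.062). It did so in HF + LP against LP for C1qb (−0.20 to 0.088), C1qc (−0.016 to 0.26), C1ra (−0.25 to 0.15), C3 (−0.14 to 0.19), and Serping1 (−0.31 to 0.13). The lowest raw count of a member, 12 for Cfb, gives that gene the least precise values.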
